A study of Mus musculus with 7 samples.

Results

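The genes described here are 6 genes of the acute-phase and interleukin-6 response, namely Saa3, Chil3, Hp, Lcn2, Il6 and Osmr. They were picked by symbol from the 32285 genes counted in every library, with measured values from these samples already in view, so their differences between groups are given as descriptions with no test. The samples were 7 single-cell RNA libraries of whole brain tumours grown from the mouse glioma line NSCG-mCherry, labelled EGFRvIII+ and Arf/Ink4a-/-, in wild-type C57BL/6 mice of 7 to 10 weeks. Each library pooled at least 2 mice, taken near day 14, after 3 rounds of treatment where the mice were treated. The UT library came from untreated mice. The 2 IgG libraries came from mice that received 10 mg/kg of an IgG2b isotype antibody. The labels describe an IgG control with and without oral diluent and do not say which library had it. The 2 BP libraries came from mice injected into the peritoneum every 3 days with 5 mg/kg of B20, which binds VEGF, and 10 mg/kg of anti-PD-L1 antibody. The BPI library had the same antibodies and IPI-145 by mouth each day at 10 mg/kg, a drug that blocks the delta and gamma forms of PI3K. The CD40 library came from mice that received 100 µg doses of a CD40 agonist antibody, and the labels leave it unsaid whether a dendritic cell vaccine was also given. The comparison asks how these genes varied by cell type when blood vessel growth, PD-1 signalling, PI3K or CD40 were targeted.

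Acute-phase proteins are secreted proteins whose production rises steeply during inflammation, mostly in liver under IL-6, IL-1 and TNF, and some are also made at the inflamed site itself. Saa3, serum amyloid A3, is the form made largely outside the liver, by macrophages among other cells. Chil3, a chitinase-like protein, is a marker of alternatively activated mouse macrophages and is also made by monocytes and neutrophils. Hp encodes haptoglobin, which binds free haemoglobin. Lcn2, lipocalin 2, binds iron-carrying bacterial siderophores and is stored in neutrophil granules. Il6 encodes the cytokine interleukin-6, which signals through Il6ra and the shared subunit Il6st to JAK kinases and STAT3. Osmr is the receptor subunit that pairs with Il6st to bind oncostatin M.

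On the mouse build GRCm38 (mm10), Saa3 lies on the minus strand of chr7:46711998-46715700, Chil3 on the minus strand of chr3:106147554-106167564 and Hp on the minus strand of chr8:109575128-109579172. Lcn2 lies on the minus strand of chr2:32384633-32388252, Il6 on the plus strand of chr5:30013114-30019981 and Osmr on the minus strand of chr15:6813577-6874969. Sequences before the RefSeq start sites of Saa3, Lcn2, Chil3 and Il6 are shown because both BP libraries lay above both IgG libraries for Saa3, Chil3 and Il6 in macrophages and for Lcn2 in tumour cells. They are RefSeq windows of up to 250 bases, read 5′ to 3′ on the gene's own strand and shortened to bases outside annotated exons. The RefSeq starts of Lcn2 and Saa3 lie inside the gene spans given above, so the Lcn2 window is within that span and upstream of the RefSeq start only. Windows were found for 5 of the 6 members, and none for Hp. Capitals mark matches on either strand to TTGCNNAA, a C/EBP-type word, TTCNNNGAA, a STAT-type word, or an NF-kB-type word of 3 G, any 5 bases and 2 C. The regions are chr7:46715701-46715926 for Saa3, chr2:32387798-32387850 for Lcn2, chr3:106167565-106167814 for Chil3 and chr5:30012864-30013113 for Il6.
Saa3: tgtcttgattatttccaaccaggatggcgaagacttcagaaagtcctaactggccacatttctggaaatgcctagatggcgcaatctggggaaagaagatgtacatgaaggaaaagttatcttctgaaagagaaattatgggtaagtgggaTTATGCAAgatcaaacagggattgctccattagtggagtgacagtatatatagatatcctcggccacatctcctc
Lcn2: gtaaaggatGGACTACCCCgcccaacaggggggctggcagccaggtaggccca
Chil3: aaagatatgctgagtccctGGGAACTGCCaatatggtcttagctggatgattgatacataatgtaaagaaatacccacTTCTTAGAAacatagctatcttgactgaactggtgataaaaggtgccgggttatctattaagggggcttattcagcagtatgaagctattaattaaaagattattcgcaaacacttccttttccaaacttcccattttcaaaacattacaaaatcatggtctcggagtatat
Il6: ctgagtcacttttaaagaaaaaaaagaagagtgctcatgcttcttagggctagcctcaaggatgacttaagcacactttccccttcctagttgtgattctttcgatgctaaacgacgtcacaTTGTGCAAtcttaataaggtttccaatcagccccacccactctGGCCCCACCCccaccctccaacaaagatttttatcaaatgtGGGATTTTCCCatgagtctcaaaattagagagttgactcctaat
Saa3 held a C/EBP-type word 99 to 92 bases before its start and Il6 held one 128 to 121 bases before. The Chil3 window held a STAT-type word 172 to 164 bases before its start and an NF-kB-type word at 231 to 222 bases. The Il6 window held NF-kB-type words at 85 to 76 bases and, as overlapping matches on both strands, at 44 to 34 bases. Lcn2 held an NF-kB-type word at 102 to 93 bases, and its full window, part of which is exonic and not printed, also held a C/EBP-type word at 216 to 209 bases. Among 27025 windows of 250 bases, 9.55% held the C/EBP-type word, 7.18% the STAT-type word and 45.4% the NF-kB-type word. The matches describe letters and were not tested as binding sites.

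The libraries held 68997476 to 186793886 UMIs (counted RNA molecules) over all barcodes and gave 48588 cells, 5373 to 9650 per library. Monocyte/macrophage-like cells numbered 80 and 57 in the IgG libraries, 1745 and 234 in the BP libraries, 584 in BPI, 162 in CD40 and 556 in UT, and tumour-like cells numbered 2646 to 5964. In every library all 16 fixed monocyte/macrophage markers were detected in the first class and all 12 fixed tumour markers in the second. Detection of a single UMI is a low bar in sums of many cells. In tumour clusters 0, 1 and 7 only 4 of the 12 tumour markers were raised by the naming rule, against 8 to 12 in the other tumour clusters. IgG replicate 1, BP replicate 2 and BPI carry consecutive library names and are called set A, and CD40 and IgG replicate 2, also consecutive, are called set B. Tumour clusters divided largely by these sets, BP replicate 1 and UT lay mostly in tumour and macrophage clusters of their own, and whether the sets are batches is not stated in the labels. Xist, which is transcribed in female cells, was at 0.159 CPM (UMIs of the gene per 1000000 UMIs of the class) in UT macrophages and at 278 to 469 CPM in the other 6 libraries. Whether the UT mice were of another sex or the library carries a wrong label cannot be told from the labels used here, and each value that takes UT as an untreated control shares that limit. At most 23 cell barcodes were shared by any pair of libraries. The monocyte/macrophage-like class was not alike in its markers across libraries. There Ly6c2, a gene of inflammatory monocytes, was at 841.6 and 46.6 CPM in the IgG pair, replicate 1 first, and at 878.9 and 1836 CPM in the BP pair. It was at 2574 CPM in BPI, 61.7 in CD40 and 3315 in UT. Levels of the members in this class were thus not compared in like cells, and the part of these differences was not tested.

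Summed over the 7 libraries, 5 of the genes had most of their UMIs in 1 class. Over all cells 94.9% of 51406 Chil3 UMIs, 84.0% of 1290 Hp UMIs and 60.4% of 3643 Saa3 UMIs were in monocyte/macrophage-like cells. By contrast 91.6% of 15881 Lcn2 UMIs and 91.9% of 12671 Osmr UMIs were in tumour-like cells. The Saa3 share came from UT, BP replicate 1 and BPI. In the other 4 libraries tumour-like cells, which are far more numerous, held more Saa3 UMIs than macrophages did, with 71 of 74 in IgG replicate 1, 93 of 109 in IgG replicate 2, 55 of 82 in BP replicate 2 and 112 of 256 in CD40. Lcn2 in CD40 was also an exception, with 333 of 600 UMIs in endothelial-like cells, as was Hp in IgG replicate 2, with 8 of 15 in neutrophil-like cells. Il6 was divided, with 40.0% of 1712 UMIs in mast or basophil-like cells (684 UMIs, 679 of them from BP replicate 1), 24.9% in monocyte/macrophage-like, 14.0% in tumour-like and 10.7% in microglia-like cells. Neutrophil-like cells numbered only 1 to 27 per library and held 10.3% of Hp and 1.44% of Lcn2 UMIs.

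**Figure D1:**
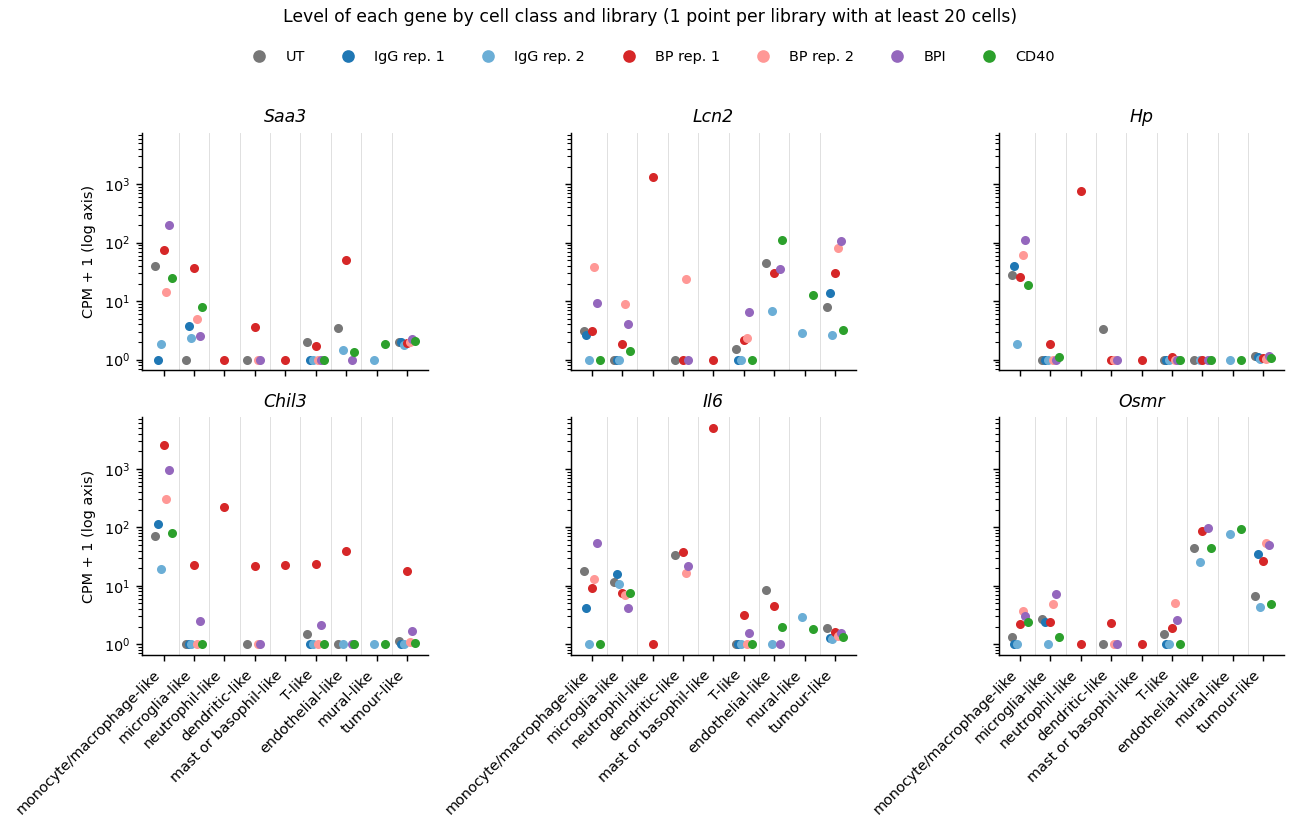
Level of the 6 genes by cell class, as CPM + 1 on a log axis, each point a library with at least 20 cells of the class. Chil3 and Hp were higher in monocyte/macrophage-like than in microglia-, T- and tumour-like cells of every library, Saa3 in 5 of the 7 (IgG excepted), and Chil3 reached 2599 CPM in BP replicate 1.

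Saa3 in monocyte/macrophage-like cells was near 0 in both IgG libraries and detected in all the others. It stood at 0 CPM (0 UMIs in 80 cells, which allows up to 5.97 CPM by the exact interval) in IgG replicate 1 and at 0.848 CPM (1 UMI) in IgG replicate 2. BP replicate 1 was at 73.8 CPM, BP replicate 2 at 13.4 CPM and BPI at 199.9 CPM, with CD40 at 24.2 and UT at 39.7 CPM. The BP libraries lay above the IgG libraries with no overlap, and BPI was the highest of the 7. The IgG mean was 0.424 ± 0.60 CPM and the BP mean 43.6 ± 42.7 CPM (SD, n = 2 each), so the spread between the 2 BP libraries was as large as their mean. On the log2(CPM + 1) scale, BP was 4.59, BPI 7.21, CD40 4.21 and UT 4.90 above IgG. The fitted log2 fold change of BP over IgG was 6.33 (SE 1.20), a value that rests on a single IgG UMI and was 4.66 without BP replicate 1. Without IgG replicate 2 the controls held 0 UMIs, so that no fold is given. Untreated macrophages were themselves high, and with UT counted among the controls the fitted log2 fold change was 1.16.

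Few macrophages carried the gene. Cells with at least 1 Saa3 UMI made up 0% (0 of 80, exact 95% binomial interval up to 4.51%) and 1.75% of monocyte/macrophage-like cells of IgG replicates 1 and 2. The share was 13.9% (12.3 to 15.6%) in BP replicate 1, 4.70% (2.37 to 8.26%) in BP replicate 2, 15.6% (12.7 to 18.8%) in BPI, 3.09% in CD40 and 7.01% in UT. With every cell thinned to 1000 UMIs the shares were 0% in both IgG libraries, 4.41% and 2.56% in the BP libraries, 7.36% in BPI, 1.23% in CD40 and 1.98% in UT. BP replicate 1 and BPI were the highest before thinning, and BPI after it. T-like cells, which serve as a class that should lack the gene, had shares of 0 to 0.738% at median depths of 2402 to 6093 UMIs, against 4680 to 14781 UMIs in the macrophages. Intervals here and below cover counting error only.

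Within the positive cells Saa3 was very uneven. The median positive macrophage held 2 UMIs in UT, BP, BPI and CD40. The 5 cells with the most Saa3 held 46.6% of macrophage UMIs in UT, 21.3% of 1270 in BP replicate 1, 65.0% of 20 in BP replicate 2 and 33.6% of 590 in BPI. In CD40 all 69 UMIs came from 5 cells, 53 of them from 1 cell. The level in BP replicate 1 and BPI was therefore spread over many cells (32 and 21 cells with 10 or more UMIs), whereas that of CD40 was the content of a single cell for the most part. Without those 5 cells per library Saa3 stood at 58.0 CPM in BP replicate 1, 4.67 in BP replicate 2, 132.8 in BPI, 21.2 in UT and 0 in CD40.

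**Figure D2:**
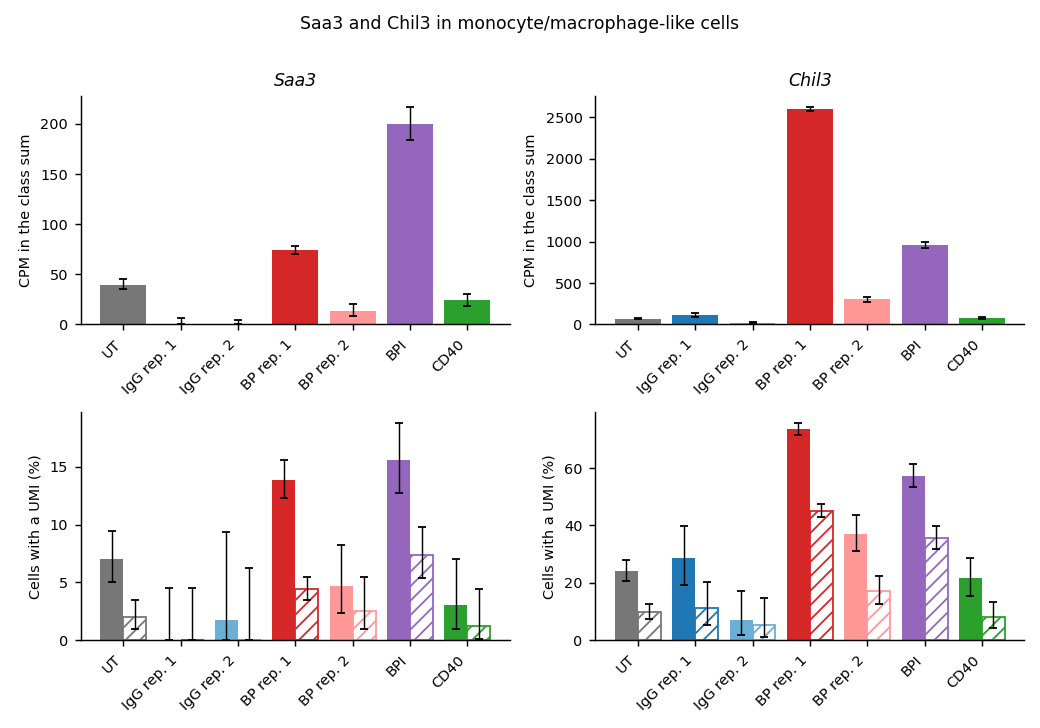
Saa3 and Chil3 in monocyte/macrophage-like cells of the 7 libraries, as CPM and as the percentage of cells with at least 1 UMI (solid bars from all UMIs, hatched bars with every cell thinned to 1000 UMIs), with exact 95% Poisson or binomial intervals. Saa3 is at 0 and 0.848 CPM in the IgG libraries and highest at 199.9 CPM in BPI, and Chil3 is highest at 2599 CPM in BP replicate 1.

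Outside macrophages Saa3 was low and patchy. Tumour-like cells stood at 0.785 to 1.21 CPM in all 7 libraries (55 to 112 UMIs per library, nearly all 1 per cell), with no separation of groups. Microglia-like cells, the resident macrophages of the brain, were at 36.3 CPM in BP replicate 1, where 1 cell held 68 of the 134 UMIs, and at 0 to 6.86 CPM in the others. Macrophage markers summed to 8774 CPM in those BP replicate 1 microglia-like cells and to 2832 to 18110 CPM in the other libraries' microglia-like cells, and their part in the Saa3 value was not tested. In BP replicate 1 a small cluster of unnamed cells led by Ccl11, Col3a1 and Postn, genes of stromal cells, added further Saa3, and 536 of the 583 UMIs in unnamed cells of that library came from a single cell. Endothelial-like cells of BP replicate 1 held 43 UMIs in 3 cells. Saa3 in barcodes of 10 to 100 UMIs, taken as free RNA, was at most 17.9 CPM (BP replicate 1). The part of free RNA in the UMIs of a class was gauged by an upper estimate, and the free RNA shares below are upper estimates too.

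Chil3 was the member with the most UMIs when the libraries were summed, 47269 of its 51406 from BP replicate 1, and in every library most of its UMIs were in macrophages. It stood at 113 CPM in IgG replicate 1 and 18.7 CPM in IgG replicate 2. BP replicate 1 was at 2599 CPM, BP replicate 2 at 303 CPM and BPI at 964 CPM, with CD40 at 79.96 and UT at 70.0 CPM. Both BP libraries and BPI lay above the remaining 4 libraries. The IgG mean was 66.0 ± 66.9 CPM and the BP mean 1451 ± 1624 CPM (SD, n = 2 each), a spread between replicates as large as the mean in both groups. On the log2(CPM + 1) scale BP was 4.23, BPI 4.35, CD40 0.77 and UT 0.58 above IgG, and the fitted log2 fold change of BP over IgG was 4.503 (SE 1.17). BP replicate 1 carried much of that size, since the fitted value without it was 2.49. Without IgG replicate 1 it was 6.31.

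A larger part of the macrophages held Chil3 than held Saa3. The shares of positive cells were not corrected for free RNA. That matters most in BP replicate 1, where 1476 of 4829 tumour-like cells held Chil3 too. The share of cells with at least 1 UMI was 28.8% (19.2 to 40.0%) and 7.02% (1.95 to 17.0%) in the IgG pair and 73.6% (71.5 to 75.7%) and 37.2% (30.97 to 43.7%) in the BP pair, replicate 1 first. It was 57.4% (53.2 to 61.4%) in BPI, 21.6% in CD40 and 24.1% in UT. BP and BPI were again the 3 highest after thinning, at 45.2%, 17.1% and 35.8%, against 11.2% and 5.26% in IgG, 8.02% in CD40 and 9.71% in UT. BP exceeded IgG by 37.5 percentage points on average, or 22.9 points after thinning. The median Chil3-positive macrophage held 6 UMIs in BP replicate 1 and BPI, 3 in BP replicate 2 and 2 in IgG replicate 1, CD40 and UT. In IgG replicate 2 it held 5.5 UMIs, from 4 positive cells.

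Chil3 was also compared inside each library set. In set A, BP replicate 2 was 2.67 times IgG replicate 1 (exact 95% interval 2.08 to 3.49), BPI was 8.50 times IgG replicate 1 (6.71 to 10.9) and BPI was 3.18 times BP replicate 2 (2.88 to 3.52). In set B, CD40 was 4.29 times IgG replicate 2 (2.76 to 6.98). The 22 Chil3 UMIs of IgG replicate 2 lay in 4 cells. The 5 highest cells held 57.5% of 228 UMIs in CD40 and 48.6% of 70 in IgG replicate 1, against 32.4% in BP replicate 2 and 6.96% in BPI. The intervals do not cover this unevenness between cells. The 2 IgG libraries themselves differed 6.07 times (3.72 to 10.3), and only the ratio of BPI to IgG replicate 1 was larger than that difference between controls. BPI lay between the 2 BP libraries, below BP replicate 1 and above BP replicate 2.

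BP replicate 1 also had Chil3 UMIs in cells of other kinds. There 30.6% of tumour-like cells and 15.7% of T-like cells held at least 1 Chil3 UMI, against 0.0168 to 0.709% and 0 to 0.369% in the other 6 libraries. Free RNA of that library held 421 CPM of Chil3, against 0 to 37.5 CPM elsewhere. By an upper estimate, capped at 100%, free RNA accounted for up to 100% of the tumour-cell Chil3 UMIs of BP replicate 1. For the macrophage Chil3 UMIs of that library the upper estimate was 4.12%. The tumour-cell level of Chil3 in that library was thus not above the most that free RNA alone was estimated to give, and a source in the tumour cells was not tested. With free RNA subtracted, the fitted log2 fold change in macrophages was 4.43.

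The macrophage clusters showed where the members sat. Cluster 11 (1368 cells, 99.9% from BP replicate 1) was led by Ccl8, Ccl24, Chil3, Arg1 and Mrc1, genes of alternatively activated macrophages, and in that library it held Saa3 at 82.1 CPM, Chil3 at 2792 CPM and Hp at 8.69 CPM. Cluster 27 (414 cells, 89.6% from BP replicate 1), whose leading genes include F13a1, held Saa3 at 25.1 CPM, Chil3 at 1550 CPM and Hp at 118.5 CPM in BP replicate 1. Cluster 22 (537 cells, 97.8% from UT) included Ly6c2, Ccl7 and Il1rn among its leading genes and held Saa3 at 41.3 and Chil3 at 66.4 CPM in UT. The members were left out of the clustering, yet genes that vary with them were not, so these levels describe the clusters and test nothing.

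Cluster 13 (1099 cells, led by Cxcl2, Lyz2 and Il1b) was the macrophage cluster that held cells of both sets, and levels could be set side by side there. Its Saa3 level was 0 in IgG replicate 1, 0.848 in IgG replicate 2, 12.6 in BP replicate 2, 196.7 in BPI and 24.6 CPM in CD40. Its Chil3 level was 115 in IgG replicate 1, 18.7 in IgG replicate 2, 249.5 in BP replicate 2, 950.8 in BPI and 81.0 CPM in CD40. The cluster held nearly all macrophages of these 5 libraries (77 of 80, 57 of 57, 225 of 234, 580 of 584 and 156 of 162), so these are close to the class values by construction.

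**Figure D3:**
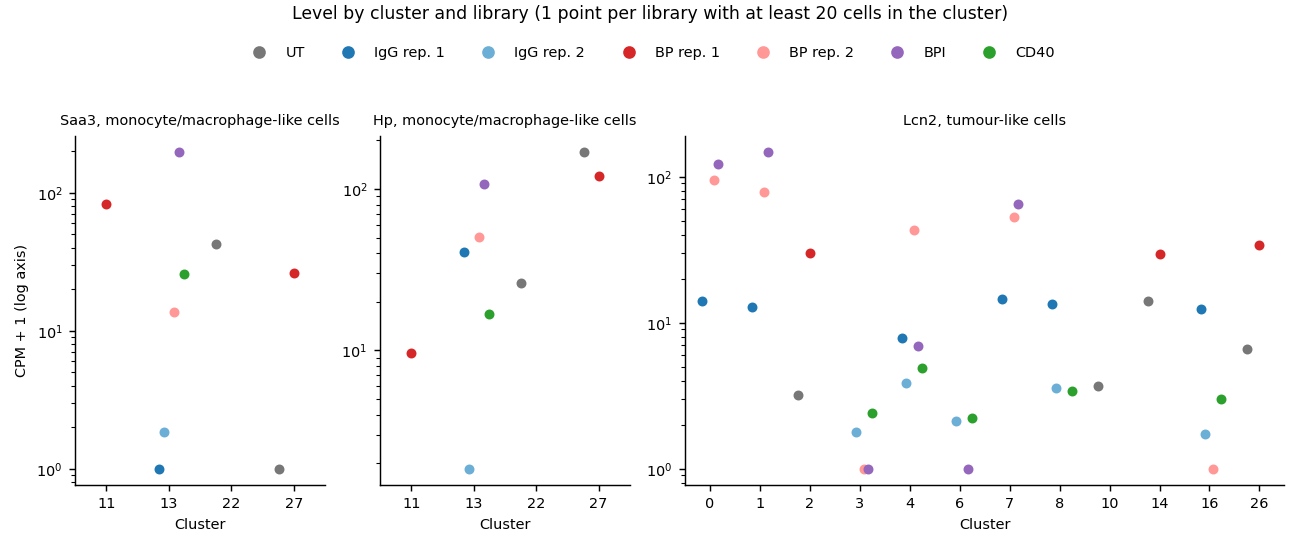
Saa3 and Hp in the 4 monocyte/macrophage-like clusters and Lcn2 in the tumour-like clusters, each point the CPM of a library in a cluster. In BP replicate 1 Saa3 is at 82.1 CPM in cluster 11 and 25.1 CPM in cluster 27, with Hp at 8.69 and 118.5 CPM, and Lcn2 is 93.6 and 120.9 CPM in BP replicate 2 and BPI of tumour cluster 0 against 13.04 CPM in IgG replicate 1.

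Saa3 and Chil3 were found in the same macrophages to different degrees. Among Saa3-positive macrophages 82.2% held Chil3 in BP replicate 1, against 72.3% of Saa3-negative ones. The shares were 63.6% and 35.9% in BP replicate 2 and 81.3% and 52.9% in BPI. In UT the order was opposite, with 7.69% (3 of 39 cells) and 25.3%. Hp-positive macrophages held Chil3 in 83.5% of cells in BPI, against 49.2% of Hp-negative ones, and in 191 of 222 cells against 71.8% in BP replicate 1. Cells with more UMIs are more likely to show any pair of genes, and neither this nor free RNA was corrected for.

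Hp in monocyte/macrophage-like cells did not separate IgG from BP. It was at 38.8 and 0.848 CPM in the IgG pair, 24.7 and 61.4 in the BP pair (replicate 1 first each time) and 108.4 for BPI, with CD40 at 17.5 and UT at 27.2 CPM. IgG replicate 1 lay above BP replicate 1, and BPI was the highest. The means were 19.8 ± 26.9 CPM in IgG and 43.1 ± 26.0 CPM in BP (SD, n = 2 each), and the fitted log2 fold change of 1.43 (SE 1.11) was close to its own error. In set A, Hp in BP replicate 2 was 1.58 times (1.0 to 2.59) and in BPI 2.79 times (1.84 to 4.42) its level in IgG replicate 1. The share of Hp-positive macrophages was 16.2% and 1.75% in IgG, 12.7% and 12.4% in BP, 23.8% in BPI, 8.02% in CD40 and 14.6% in UT. Neutrophil-like cells had the highest Hp of any class, at 119.8 to 1523 CPM in the 6 libraries with any Hp there, from 8 to 51 UMIs.

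Lcn2 was mostly in tumour cells in every library but CD40. Tumour-like cells stood at 12.5 CPM in IgG replicate 1 and 1.66 CPM in IgG replicate 2. BP replicate 1 was at 29.6 CPM, BP replicate 2 at 80.5 CPM and BPI at 107.5 CPM, with CD40 at 2.20 and UT at 6.99 CPM. Both BP libraries and BPI lay above the other 4, and CD40 and IgG replicate 2 were the lowest. The means were 7.09 ± 7.68 CPM in IgG and 55.0 ± 36.0 CPM in BP (SD, n = 2 each). On the log2(CPM + 1) scale BP was 3.06 and BPI 4.18 above IgG, and CD40 differed from IgG by -0.91. UT was 0.41 above IgG on that scale, whereas its fitted log2 fold change was -0.13 (SE 1.34). The fitted log2 fold change of BP over IgG was 2.94 (SE 1.16), with 1.87 without BP replicate 2 and 5.17 without IgG replicate 1.

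The share of tumour-like cells with at least 1 Lcn2 UMI was 9.48% and 1.86% for the IgG pair, 20.1% and 32.5% for the BP pair (replicate 1 first), 33.3% for BPI, 2.53% for CD40 and 6.46% for UT. After thinning to 1000 UMIs the shares were 1.38% and 0.168% in IgG, 2.36% and 6.32% in BP, 8.41% in BPI, 0.238% in CD40 and 0.491% in UT. Both BP libraries and BPI were above the other 4 libraries before and after thinning. BP exceeded IgG by 20.6 percentage points with all UMIs and by 3.57 points after thinning. T-like cells held Lcn2 in 0 to 1.69% of cells, at the depths given above, against median tumour-cell depths of 10576 to 21808 UMIs. Cells with 10 or more Lcn2 UMIs numbered 62, 89 and 114 in BP replicate 1, BP replicate 2 and BPI and 2 to 12 in the other 4 libraries. In BP replicate 1 a single cell held 194 UMIs and the top 5 cells held 13.2%, against 3.16% in BP replicate 2 and 2.93% in BPI.

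**Figure D4:**
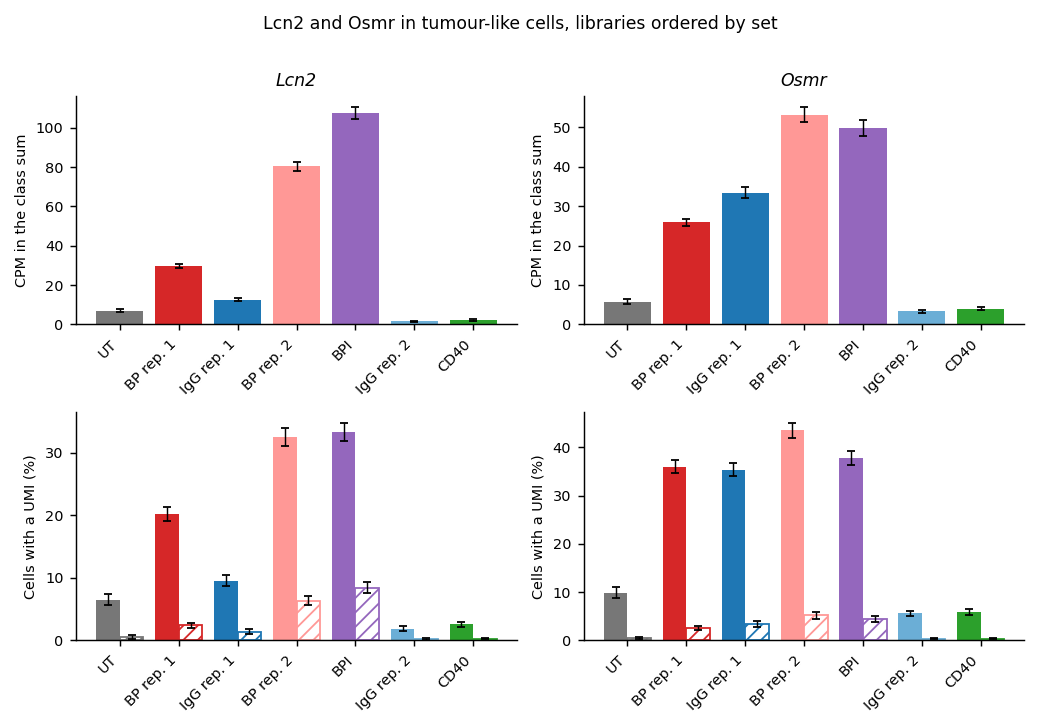
Lcn2 and Osmr in tumour-like cells of the 7 libraries, as CPM and as the percentage of cells with at least 1 UMI (solid bars from all UMIs, hatched bars with every cell thinned to 1000 UMIs), ordered by library set and with exact 95% Poisson or binomial intervals. Lcn2 is 29.6 to 107.5 CPM in the BP and BPI libraries and 1.66 to 12.5 CPM in the others, whereas Osmr in IgG replicate 1 (33.4 CPM) lies above BP replicate 1 (25.9 CPM).

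Inside set A, Lcn2 in tumour-like cells of BP replicate 2 was 6.43 times (5.98 to 6.91) its level in IgG replicate 1. BPI was 8.58 times (7.99 to 9.23) IgG replicate 1 and 1.34 times (1.28 to 1.39) BP replicate 2. In set B, CD40 was 1.32 times (1.09 to 1.61) IgG replicate 2. The IgG libraries differed 7.53 times (6.45 to 8.84) from each other, which is about the size of the ratios within set A. The 3 large set A tumour clusters gave the same order. IgG replicate 1 was at 13.04, 11.8 and 13.6 CPM in clusters 0, 1 and 7, BP replicate 2 at 93.6, 78.2 and 52.0 CPM, and BPI at 120.9, 146.8 and 64.4 CPM. BP replicate 1 fell mainly in cluster 2 (97.6% of its cells from that library), where Lcn2 was at 29.2 CPM. The upper estimate of tumour-cell Lcn2 from free RNA was 6.46 to 28.7% of the UMIs, and with free RNA subtracted the fitted log2 fold change was 2.83.

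Lcn2 also appeared in small cell classes. Neutrophil-like cells reached 2296 CPM in IgG replicate 1, but all 76 UMIs came from 1 of 4 cells. In BP replicate 1 they held 73 UMIs in 4 of 27 cells, and in BPI 54 UMIs in 9 of 19 cells. Endothelial-like cells were at 111 CPM in CD40 (333 UMIs in 28 of 144 cells), 43.0 in UT, 34.2 in BPI (5 UMIs), 29.7 in BP replicate 1 (26 UMIs) and 5.89 CPM in IgG replicate 2. In UT 40 of the 52 endothelial UMIs were in 1 cell, and in CD40 the top 5 cells held 66.7%, without which it stood at 37.1 CPM. Of 12 neutrophil markers 8 to 11 were detected in tumour-like cells, with a sum of 13.7 CPM in UT and 4.35 to 7.50 CPM in the other 6 libraries, and 10.1 to 81.9 CPM in free RNA. In UT most of that sum was G0s2 at 8.66 CPM and Camp at 3.42 CPM, while S100a9 was at 0 CPM. Whether these UMIs came from neutrophils, and the part of the neutrophil markers in the Lcn2 values, was not tested.

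Monocyte/macrophage-like cells had little Lcn2, at 0 to 8.13 CPM in 6 libraries and 37.4 CPM in BP replicate 2. In that library 47 of 56 UMIs were in 1 cell. Its summed neutrophil markers were also high there, at 1843 CPM against 43.3 to 155 CPM in the other 6 libraries, with S100a9 at 782.9 CPM and Camp at 224.3 CPM. Macrophages with 2 or more UMIs of neutrophil genes numbered 5 in BP replicate 2, 61 in BP replicate 1, 37 in BPI, 16 in UT, 6 in CD40, 1 in IgG replicate 1 and 2 in IgG replicate 2. Without these 128 cells the fitted log2 fold changes in macrophages were 6.19 for Saa3, 4.42 for Chil3 and 1.26 for Hp.

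Osmr in tumour-like cells followed the library sets. It was at 33.4 and 3.30 CPM in the IgG pair, 25.9 and 53.1 in the BP pair (replicate 1 first each time) and 49.7 for BPI, with CD40 at 3.93 and UT at 5.71 CPM. The IgG and BP groups overlapped, and the 3 lowest libraries were IgG replicate 2, CD40 and UT. The means were 18.3 ± 21.3 CPM in IgG and 39.5 ± 19.3 CPM in BP (SD, n = 2 each), with a fitted log2 fold change of 1.07 (SE 1.14). In set A, BP replicate 2 was 1.59 times (1.51 to 1.68) and BPI 1.49 times (1.41 to 1.58) IgG replicate 1, and in set B CD40 was 1.19 times (1.03 to 1.38) IgG replicate 2. The IgG libraries differed 10.1 times (9.08 to 11.3) from each other, more than any of these ratios. The share of Osmr-positive tumour cells was 35.4% and 5.55% in IgG, 36.0% and 43.5% in BP, 37.9% in BPI, 5.84% in CD40 and 9.79% in UT.

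The share of tumour cells with Osmr was higher among Lcn2-positive than among Lcn2-negative cells in every library. Among Lcn2-positive tumour cells 46.6% held Osmr in IgG replicate 1 (34.2% of the Lcn2-negative ones), 51.8% in BP replicate 2 (39.6%), 43.5% in BP replicate 1 (34.1%) and 44.9% in BPI (34.4%). The values were 16.2% (5.35%) in IgG replicate 2, 18 of 138 cells (5.65%) in CD40 and 17.5% (9.25%) in UT. Depth per cell was not matched in these counts. Osmr was also carried by vessel cells, at 24.9 to 95.7 CPM in endothelial-like cells of the 7 libraries. Some of these values rest on few molecules. BP replicate 2 had 7 such cells with 2 Osmr UMIs, and IgG replicate 1 had 12 with 10 UMIs, 8 of them in 1 cell. Mural-like cells of IgG replicate 2 and CD40, the libraries with 57 and 181 such cells, held Osmr at 75.0 and 93.4 CPM. Macrophages had almost none, at 0 to 2.67 CPM, and Osmr was too low there to be tested.

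Il6 was highest in a class seen almost only in BP replicate 1. The 42 mast or basophil-like cells of that library held it at 4963 CPM (679 UMIs), and 85.7% of them had at least 1 UMI (76.2% after thinning). BP replicate 2 had 1 such cell, with 5 UMIs, and no other library had any. In monocyte/macrophage-like cells Il6 was at 3.24 and 0 CPM in the IgG pair, 8.19 and 12.0 in the BP pair (replicate 1 first each time) and 53.5 CPM in BPI, 0 in CD40 and 17.2 CPM in UT. BPI and UT were the highest, and IgG rested on 2 UMIs. The means were 1.62 ± 2.29 CPM in IgG and 10.1 ± 2.70 CPM in BP (SD, n = 2 each), with a fitted log2 fold change of 3.15 (SE 1.02), or 0.053 with UT counted among the controls. The share of Il6-positive macrophages was 14.6% in BPI (85 of 584 cells), 9.71% in UT, 5.13% and 3.90% in BP replicates 2 and 1, 2.50% and 0% in IgG and 0% in CD40. In BP replicate 1 the upper estimate of free RNA was 30.8% of the macrophage Il6 UMIs. Microglia-like cells held Il6 at 3.08 to 14.9 CPM with both IgG libraries above both BP libraries. Tumour-like cells were at 0.203 to 0.906 CPM in all libraries.

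The other genes of the pathway were followed in lists that hold none of the 6 members, and no list gene passed an adjusted p of 0.05 in edgeR's quasi-likelihood test in any class or contrast. Among the IL-6 family ligands in macrophages, Osm, which encodes oncostatin M, the ligand of Osmr, was at 51.8 and 17.8 CPM in the IgG pair, 82.4 and 99.4 CPM in the BP pair and 173.8 CPM for BPI, with CD40 at 26.3 and UT at 31.6 CPM. Its fitted log2 difference was 1.57 (SE 0.54) for BP and 2.92 (SE 0.61) for BPI over IgG. Il27, another ligand of the family, was at 8.09 and 3.39 (IgG), 29.1 and 54.7 (BP) and 101.3 CPM (BPI) and 70.0 CPM in UT. Both were higher in the 2 BP libraries and BPI than in the 2 IgG libraries. Clcf1 was at 0 to 6.80 CPM and Lif at 0 to 5.42 CPM in macrophages.

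The receptors follow. Il6ra in macrophages was at 61.5 and 57.7 (IgG), 139.4 and 63.4 (BP) and 68.8 CPM (BPI). Il6st was at 22.7 and 22.1 (IgG), 128.6 and 19.4 (BP) and 14.9 CPM (BPI), so BP replicate 1 stood apart for both. In tumour-like cells, where Osmr was found, its partner Il6st was at 36.3 to 82.7 CPM and Lifr, which pairs with Il6st for LIF, at 20.4 to 56.3 CPM in the 7 libraries, with BP replicate 1 highest for both. Slc22a17, a cell-surface receptor for lipocalin 2, was at 2.28 to 11.6 CPM in tumour-like cells, and Cd163, the scavenger receptor for haptoglobin bound to haemoglobin, was at 0 to 7.01 CPM in macrophages.

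Of the signal transducers and targets all 20 were tested in macrophages and all 20 had a fitted value above 0 for both BP and BPI over IgG, beside 52.9% and 49.4% of all genes tested. Their median log2 differences were 0.98 and 1.99, against 0.041 and -0.0081 over all genes, and 10 and 13 of them had an unadjusted p under 0.05, beside 920 and 1313 of all 11760 genes. For UT over IgG 16 of the 20 were above 0, beside 50.6% of all genes, with a median of 0.82 and 7 at an unadjusted p under 0.05 (1457 of 12279 genes). For CD40 over IgG 12 were above 0, beside 49.5% of all genes, with a median of 0.061 and 0 at an unadjusted p under 0.05 (148 of 11760 genes). The lists were chosen with earlier results of these data known, and their genes share the same IgG sums. The list counts here and below are thus descriptions and support nothing. Socs3, the feedback inhibitor induced by STAT3, was at 74.5 and 32.2 (IgG), 204.4 and 186.2 (BP) and 283.6 (BPI), with CD40 at 68.7 and UT at 186.1 CPM. Junb was at 788.2 and 510.5 (IgG), 803.4 and 1104 (BP) and 1642 CPM (BPI), and Cebpb, a transcription factor of the acute-phase response, at 495.3 and 281.5 (IgG), 642.7 and 644.7 (BP) and 897.8 CPM (BPI) and 64.9 CPM in UT. In tumour-like cells Socs3 was at 235.6 and 157 (IgG), 192.6 and 270.1 (BP) and 291.2 CPM (BPI), and the groups overlapped. Stat3 in tumour-like cells was at 92.4 to 324.8 CPM with BP replicate 1 the highest.

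Among upstream cytokines Il1b in macrophages was at 391.7 and 101.8 (IgG), 374.4 and 1257 (BP) and 1906 (BPI), with CD40 at 206.6 and UT at 213.4 CPM, with IgG and BP overlapping. Of 12 acute-phase proteins tested there, 8 were above 0 for BP, 9 for BPI, 8 for UT and 5 for CD40, beside 52.9%, 49.4%, 50.6% and 49.5% of all genes. Il1rn, the secreted antagonist of the IL-1 receptor, was at 127.9 and 22.1 (IgG), 374.5 and 374.4 (BP) and 680 CPM (BPI) and 686.9 CPM in UT. Cd14 was at 276.8 and 223 (IgG), 117.4 and 461.9 (BP) and 791.4 CPM (BPI). In tumour-like cells the metallothionein gene Mt2 was at 207.7 and 62.0 (IgG), 454 and 464 (BP) and 475.8 (BPI), with CD40 at 63.4 and UT at 410.8 CPM. Lbp, which encodes a lipopolysaccharide-binding protein, was at 420.6 CPM in UT tumour cells and at 61.0 to 101.8 CPM in the other 6 libraries.

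The remaining lists and the remaining genes named by the rule were as follows in macrophages. For BP over IgG 3 of 4 ligands, 4 of 4 receptors, 9 of 10 upstream genes, 10 of 12 neutrophil granule genes and 4 of 8 partners of the secreted proteins were above 0, and for BPI the counts were 4, 2, 10, 9 and 2. Over all genes 52.9% were above 0 for BP and 49.4% for BPI, so the receptors for BPI and the partners for BP were near that share. S100a9 and S100a8, at 782.9 and 602.7 CPM in BP replicate 2, were at most 16.2 and 60.3 CPM elsewhere. In BP replicate 1 S100a9 was at 1.10 CPM, below IgG replicate 1 at 16.2 CPM. Only 5 macrophages of BP replicate 2 held 2 or more UMIs of neutrophil genes, so the granule gene count for BP leans on few cells. Nfkbia, an inhibitor of NF-kB, was at 409.5 and 224.7 (IgG), 292.4 and 736.8 (BP) and 1128 CPM (BPI). Tnf was at 160.2 and 107.7 (IgG), 33.6 and 253.6 (BP) and 416.4 CPM (BPI), and Tlr2 was at 88.2 to 228.3 CPM in the 7 libraries. The ferritin genes Fth1 and Ftl1 were at 9488 to 18750 and 4225 to 11460 CPM. Hmox1, which breaks down haem, was at 301 and 134.8 (IgG), 114 and 88.8 (BP) and 84.7 CPM (BPI). It was at 76.1 CPM in CD40 and 160.8 CPM in UT. Mt1, of the acute-phase list, was at 587.5 and 821.7 (IgG), 310.1 and 425.8 (BP) and 182.3 CPM (BPI). Its level was 834.4 CPM in CD40 and 140.1 CPM in UT. For Hmox1 and Mt1 both BP libraries and BPI lay below both IgG libraries. Stat3 was at 133.6 to 337.4 CPM, Lifr at 3.19 to 16.8, Il11ra1 at 8.81 to 55.5 and Slc22a17 at 0 to 2.10 CPM. IgG and BP overlapped for Nfkbia and Tnf, and BP replicate 1 was the lower of the BP libraries for both.

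In tumour-like cells 6 of 7 ligands, 5 of 6 receptors, 20 of 20 transducers and targets, 9 of 10 upstream genes, 12 of 17 acute-phase genes, 6 of 9 neutrophil granule genes and 5 of 9 partners were above 0 for BP over IgG, beside 50.1% of all genes tested. For BPI the counts were 5, 3, 16, 8, 14, 7 and 4, beside 45.2%. For UT over IgG 14 of 20 transducers and targets, 9 of 11 upstream genes and 12 of 16 acute-phase genes were above 0, beside 47.3%, and for CD40 8 of 20, 6 of 10 and 5 of 17, beside 50.4%. In microglia-like cells 18 of 20 transducers and targets were above 0 for BP, 15 for BPI and 17 for CD40, and 7 of 19 for UT, beside 46.3%, 46.3%, 49.8% and 45.8% of all genes. Ligands were low in tumour-like cells, with Ctf1 at 9.81 to 15.1 CPM, Osm at 0.18 to 15.0 and Lif at 1.14 to 7.06 CPM. Tumour-like cells held Mt1 at 617.6 and 280.8 (IgG), 678.7 and 1250 (BP) and 1369 CPM (BPI), and Junb at 784.2 and 236.8 (IgG), 301.5 and 1112 (BP) and 1299 CPM (BPI). Il6ra in tumour-like cells was at 4.66 to 19.5 CPM, Il11ra1 at 17.5 to 31.2, Tnfrsf1a at 43.7 to 94.8, Myd88 at 8.66 to 40.1 and Tlr4 at 6.75 to 31.5 CPM. The ranges of the others in tumour-like cells were 1820 to 3217 CPM for Fth1, 563.6 to 2033 CPM for Ftl1, 58.5 to 128.3 CPM for Scarb1, 2.09 to 15.5 CPM for Prtn3, 0.87 to 3.42 CPM for Camp, 0 to 1.07 CPM for S100a9 and 0.32 to 1.17 CPM for Cd163.

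**Figure D5:**
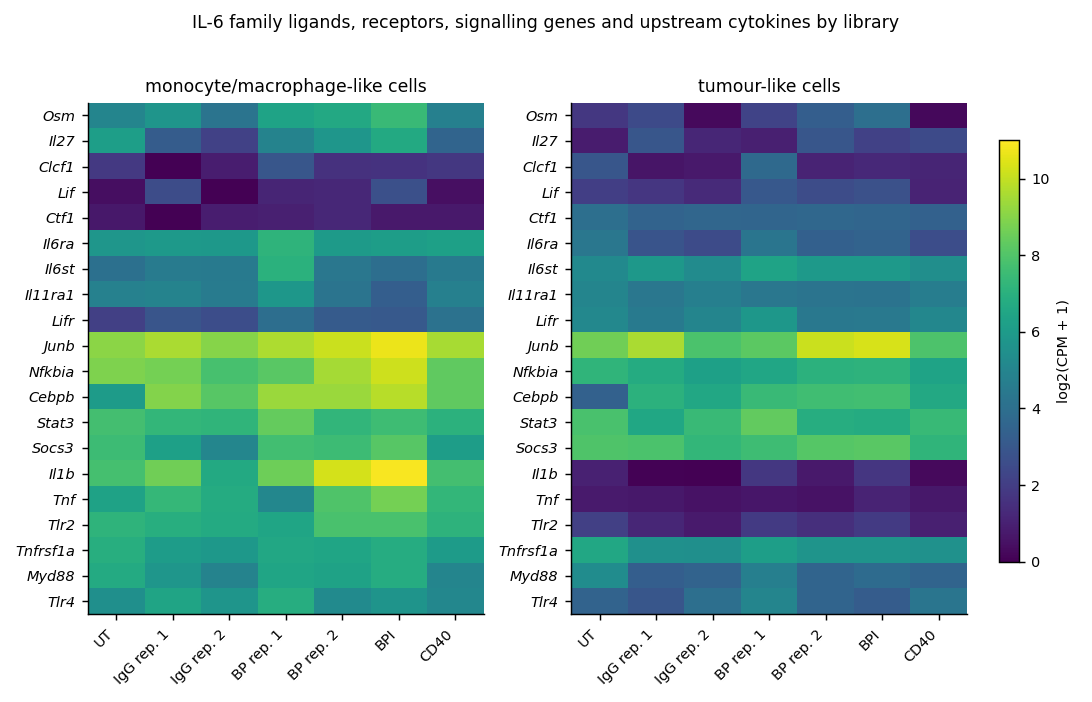
Levels, as log2(CPM + 1), of IL-6 family ligands, receptors, signalling genes and upstream cytokines named by a fixed rule, in monocyte/macrophage-like cells (left) and tumour-like cells (right) of the 7 libraries. Osm and Il27 in macrophages are highest in BPI (173.8 and 101.3 CPM), and Il6st and Lifr in tumour-like cells are highest in BP replicate 1 (82.7 and 56.3 CPM).

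Close copies of the members were nearly silent. Over all cells Saa1 had 21 UMIs, Saa2 20, Saa4 3 and Chil4 13, against 3643 for Saa3 and 51406 for Chil3. Chil1, which encodes another chitinase-like protein, had 2491 UMIs, 79.0% of them in macrophages, with 1396 in BP replicate 1 and 689 in UT. Of the 31-base words of the Chil3 transcript 44.8% also occur in other genes, 31.1% in Chil4, so that Chil3 reads could be divided between the pair, depending on how the authors' counting treated reads with several matches. Saa3 shared no such word with Saa1, Saa2 or Saa4, but 163 of its 2161 words (7.54%) occur in other genes, 68 of them in Malat1.

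Over 58 sums of a class in a library with at least 20 cells, the genes whose log2(CPM + 5) pattern was most like each member were found among 11668 genes. For Saa3 they were Nos2 (Pearson r 0.762), Tfec (0.755), C3 (0.725), Chil3 (0.724) and Clec4a1 (0.69). For Chil3 they were Ear2 (0.866), Clec4a1 (0.86), F10 (0.838), Tfec (0.827) and C3 (0.823). For Lcn2 the values were lower, with Cyb5r1 (0.687), Rnd1 (0.683), Lrg1 (0.659), Steap4 (0.645) and Id1 (0.642). Tfec, C3 and Clec4a1 stood in both the Saa3 and the Chil3 list, and none of the 5 genes named for Lcn2 stood in either. The sums share libraries, and these r values are descriptions.

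Of the 5 members tested in macrophages, 4 had both BP libraries above both IgG libraries (Saa3, Chil3, Il6 and Lcn2), beside 13.5% of the 11760 genes tested. In tumour-like cells 3 of 6 had it (Lcn2, Il6 and Chil3, the last within the upper estimate of free RNA in BP replicate 1), beside 9.86% of 20181 genes. In microglia-like cells 2 of 4 tested had it (Saa3 and Osmr) beside 14.6% of 12308 genes, and 1, Il6, had both BP libraries below both IgG libraries, beside 18.2%. These counts include the contrast the members were chosen on and support nothing. Across all genes edgeR's quasi-likelihood test called 0% of genes at an adjusted p of 0.05 for BP, BPI and CD40 over IgG in each of the 3 classes, and for UT over IgG in microglia-like and tumour-like cells. UT over IgG in macrophages had 1 call, Xist (0.00814% of 12279 genes). At an unadjusted p under 0.05 there were 920, 1313, 148 and 1457 genes in macrophages for BP, BPI, CD40 and UT, 574, 394, 44 and 766 in microglia-like cells and 396, 200, 23 and 2403 in tumour-like cells. DESeq2 called 117, 215, 5 and 237 genes in macrophages, 42, 20, 0 and 73 in microglia-like and 62, 6, 0 and 772 in tumour-like cells. These tests measure the spread between the 2 IgG and the 2 BP pooled libraries, and BPI, CD40 and UT had 1 library each.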

How the data were processed

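Raw UMI count matrices of all barcodes for 7 libraries were used as deposited. Cell Ranger 7.0.1 and mm10 are named per the submitters' processing notes, while the matrix format line names Cell Ranger 4 per the file headers, and V2 chemistry is given per the labels' protocols. Cells had at least 1000 UMIs, 500 genes and at most 15% mitochondrial UMIs. Doublets were ranked with Scrublet in scanpy 1.11.5 and removed at 0.8% per 1000 cells. Clustering (leidenalg 0.10.2, resolution 1) used 2000 variable genes without the members, 30 components and 15 neighbours. Clusters were named from 21 fixed marker lists, by a rule set after the data were seen. CPM is per 1000000 UMIs of a class in a library. Class sums were tested with edgeR 4.0.16 (R 4.3.3), quasi-likelihood with TMM, filterByExpr and Benjamini-Hochberg adjustment, tested on simulated data. Of 200 genes changed in the simulation, 58% were recovered in monocyte/macrophage-like sums (11760 genes), 28% in microglia-like (12308) and 6.5% in tumour-like (20181), at log2 changes near 2. The changed genes were drawn from those above the median level, and only BP was given other means. The recovered shares thus do not hold for genes with few UMIs. IgG, BP, BPI and CD40 shared 1 fit of 6 libraries. UT was set against IgG in a fit with all groups. Neutrophil-, dendritic- and endothelial-like tests were planned and could not be fitted, since a library had under 20 such cells. Alternatives were DESeq2 1.42.0, other size factors, no filter, a replicate block, left-out libraries, UT pooled with IgG, other cell cuts and free RNA subtraction. The members and gene lists were chosen with earlier results of these data known. Named are the members, their copies and partners, list genes past the threshold, the 3 list genes highest in each of the monocyte/macrophage-like and tumour-like classes, and the 5 most alike genes of Saa3, Chil3 and Lcn2. Nothing says whether same-group libraries came from separate experiments, so p-values measure the spread between pooled libraries.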

Additional observations from a re-analysis of the deposited data

How the results depend on the processing

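Over the alternatives run, the BP over IgG differences of Saa3, Chil3, Hp and Il6 in macrophages and of Lcn2 and Osmr in tumour-like cells did not change sign, nor did those of the shares of cells with Saa3, Chil3 and Lcn2 there. Genes called by DESeq2 numbered 117, 215, 5 and 237 in macrophages (BP, BPI, CD40, UT over IgG), 42, 20, 0 and 73 in microglia-like and 62, 6, 0 and 772 in tumour-like cells, against 0 by edgeR but for 1 in UT macrophages, which was 0 with DESeq2's size factors in edgeR. With no filter on low counts the numbers were 420, 603, 51 and 639 in macrophages, 287, 122, 27 and 297 in microglia-like and 0 in tumour-like cells. Leaving out 1 library gave 0 to 163 (BP), 0 to 270 (BPI), 0 to 0 (CD40) and 0 to 237 (UT) in macrophages, 0 to 1100, 0 to 287, 0 to 59 and 0 to 465 in microglia-like and 0 to 0 in tumour-like cells. The largest counts came without BP replicate 2, except 270 without BP replicate 1. The cause was not tested.

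The replicate numbers are only shared numbers (correlations of same-numbered deviations -0.22 in macrophages, -0.000034 in microglia-like and -0.70 in tumour-like cells). With the replicate block 38 genes were called for BP in macrophages and 0 in the other classes, and with the pairing crossed, chosen after seeing the data, 509 and 0.

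The log2 difference of Saa3 (6.33) was 4.66 to 10.8 with 1 library left out, 1.16 with UT pooled with IgG and 10.2 without the 5 highest cells per library, chosen after seeing the data. Chil3 (4.503) ranged from 2.49 to 6.31, Lcn2 (2.94) from 1.87 to 5.17, Hp (1.43) from 0.28 to 5.79, Il6 (3.15) from 1.70 to 8.72 and Osmr (1.07) from 0.19 to 3.69 with 1 library left out. The lowest came without BP replicate 1 for Saa3 and Chil3, BP replicate 2 for Lcn2 and IgG replicate 2 for the others, and the highest without IgG replicate 1, or IgG replicate 2 for Saa3. In 3 of these, the values of 10.8 and 10.2 for Saa3 and 8.72 for Il6, the IgG sums held 0 UMIs, so their size is set by the fit's prior count and measures nothing. The BP minus IgG share of Saa3 cells (8.41 points) was 3.49 after thinning, and that of Lcn2 cells (20.6) was 3.57 after thinning and 12.5 at 2 or more UMIs. The IgG macrophages, 80 and 57 cells, held 0 to 2 UMIs per library of each of Saa3, Lcn2, Il6 and Osmr, so macrophage differences from IgG rest on few molecules.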
